A study of Danio rerio with 6 samples.

Results

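Macrophages and microglia, the resident macrophages of the central nervous system, were followed through 39 of their genes in zebrafish larvae whose spinal cord had been cut. Both cell types arise under the transcription factor Spi1 (PU.1) and depend on the receptor Csf1r, which binds the ligands Csf1 and Il34. They take up debris, digest it in lysosomes with cathepsins, and bind complement-tagged material. In larval zebrafish they gather at a spinal cord lesion, where macrophages are known to limit inflammation and aid regrowth of axons.

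The 39 genes were a named list, taken from the annotation deposited with the counts by an exact match of the gene name. Each of the 39 matched 1 gene ID in the deposited counts, which cover 22350 genes. A filter on low counts left 37 of them among 19562 genes tested, and the 2 left out were tyrobp and ccl35.1. The list mixes genes restricted to macrophages (such as mpeg1.1 and marco), genes of all leukocytes (ptprc, coro1a, lcp1, laptm5) and genes also used by many other cells (arpc1b, ctsba, ctsd, hexb, grna, apoeb).

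Wild-type AB larvae aged 5 days had the cord fully severed near the anal pore. After 6 h of recovery one group went into 35 µM IWR-1, a compound that blocks Wnt signalling, with 0.25% DMSO as carrier, and the other into 0.25% DMSO. Trunk tissue of about 1 mm around the cut was taken 3 days after injury, at an age of 8 days, and 20 animals were pooled per sample. There were 3 biological replicates a group, and no uninjured group was analysed here. The question addressed is whether these genes differed between injured larvae with and without the Wnt antagonist. Because a sample is bulk tissue, more cells of a type and more RNA per cell cannot be told apart in any value that follows.

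Library totals ran from 11014963 to 15219664 counts, and the members had between 3 and 9981 counts in single libraries. Mitochondrial genes took 9.22 to 12.7% of counts with IWR-1 and 6.32 to 10.4% with DMSO. Markers of the tissues named by the dissection were present in every library, with the neuronal gene elavl3 at 60.0 to 105 CPM (counts scaled to library size), the fast muscle gene mylpfa at 6824 to 8934 CPM and the skin keratin gene krt4 at 1061 to 2411 CPM. Of the 11 tissue genes 3 were lower with IWR-1 and 0 higher, where 3.59% and 3.88% of all tested genes were. With the replicate block 3 were lower and 1, elavl3, higher, where 8.86% and 8.96% of all genes were. The cartilage and notochord collagen gene col9a1a had a log2 fold change of -2.07 (edgeR adjusted p = 0.00346), and its call held without any 1 library, at adjusted p up to 0.0257. krt4 and the keratin gene krt5 were at -0.70 and -0.68 (edgeR adjusted p = 0.0411 and 0.0378). The call of krt4 was lost when any 1 of the 6 libraries was left out, at adjusted p between 0.0528 and 0.110, and that of krt5 held only without DMSO replicate 2, with 0.0553 to 0.139 otherwise. Differences in the share of skin, muscle or cord in the samples were not tested for their part in the values below.

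Of the 37 members tested, 5 rose with IWR-1 and 0 fell at a Benjamini-Hochberg adjusted p below 0.05 in edgeR's quasi-likelihood test. The 5 were the perforin gene mpeg1.2, the leukocyte genes ptprc and lcp1, and the cathepsin S genes ctss2.1 and ctss2.2. Over all genes tested 3.88% rose and 3.59% fell, against 13.5% and 0% of the members. The members were chosen with earlier results of these data known, and they varied together between libraries. These shares, and those that follow for the members, are therefore no test of the list. An unadjusted p below 0.05 was found for 16 members, or 43.2%, where all tested genes gave 24.1%. DESeq2, which also tested tyrobp and ccl35.1, called 5 members higher and 0 lower, where 4.28% and 4.06% of its genes were called. limma voom, run with a weight for each library, called 25 higher and 0 lower, where 12% and 10.8% of genes were called. The part of these weights in its calls and fold changes was not tested. At an edgeR adjusted p below 0.1 there were 7 higher and 1 lower, where 6.29% and 6.24% were. The median log2 fold change of the members was 0.36, beside -0.0060 over all genes tested, and 30 of the 37 lay above 0, where 49.5% of all genes did. The members' median was 0.24 without DMSO replicate 1 and also without IWR-1 replicate 2, 0.56 without IWR-1 replicate 1, 0.62 without DMSO replicate 2, and 0.68 with limma voom.

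For 10 members the 2 sets of libraries were fully apart, 9 of them with all IWR-1 libraries above (14.2% of all tested genes) and 1 with all below (15.6% of all tested genes). The 9 are the 5 that rose together with hexb, coro1a, c1qa and cd74b, and the 1 below is lgals3bpb. For the other 27 at least 1 IWR-1 library lay within the DMSO range. Adding the replicate number to the fit as a block gave 14 members higher and 1 lower, where 8.96% and 8.86% of all genes were called. All 5 members called without the block were among the 14. The labels state no pairing, and the block was adopted because same-numbered libraries deviated together in these same counts. Its calls and adjusted p-values are therefore not separate support for any member.

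The call of mpeg1.2 held when each library was left out in turn, with adjusted p between 0.00308 and 0.0286. Those of ptprc, lcp1, ctss2.1 and ctss2.2 did not: without IWR-1 replicate 2, IWR-1 replicate 3 or DMSO replicate 1 their adjusted p lay between 0.0546 and 0.121, and mpeg1.2 was the 1 member called, where 1.6%, 1.31% and 1.69% of all genes were called higher. Without DMSO replicate 2, 10 members were called higher (4.58% of all genes), the 5 above and mfap4, hexb, spi1a, fcer1g and grna. Without IWR-1 replicate 1 there were 7 (3.67% of all genes) and without DMSO replicate 3 there were 5 (5.22% of all genes).

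**Figure D1:**
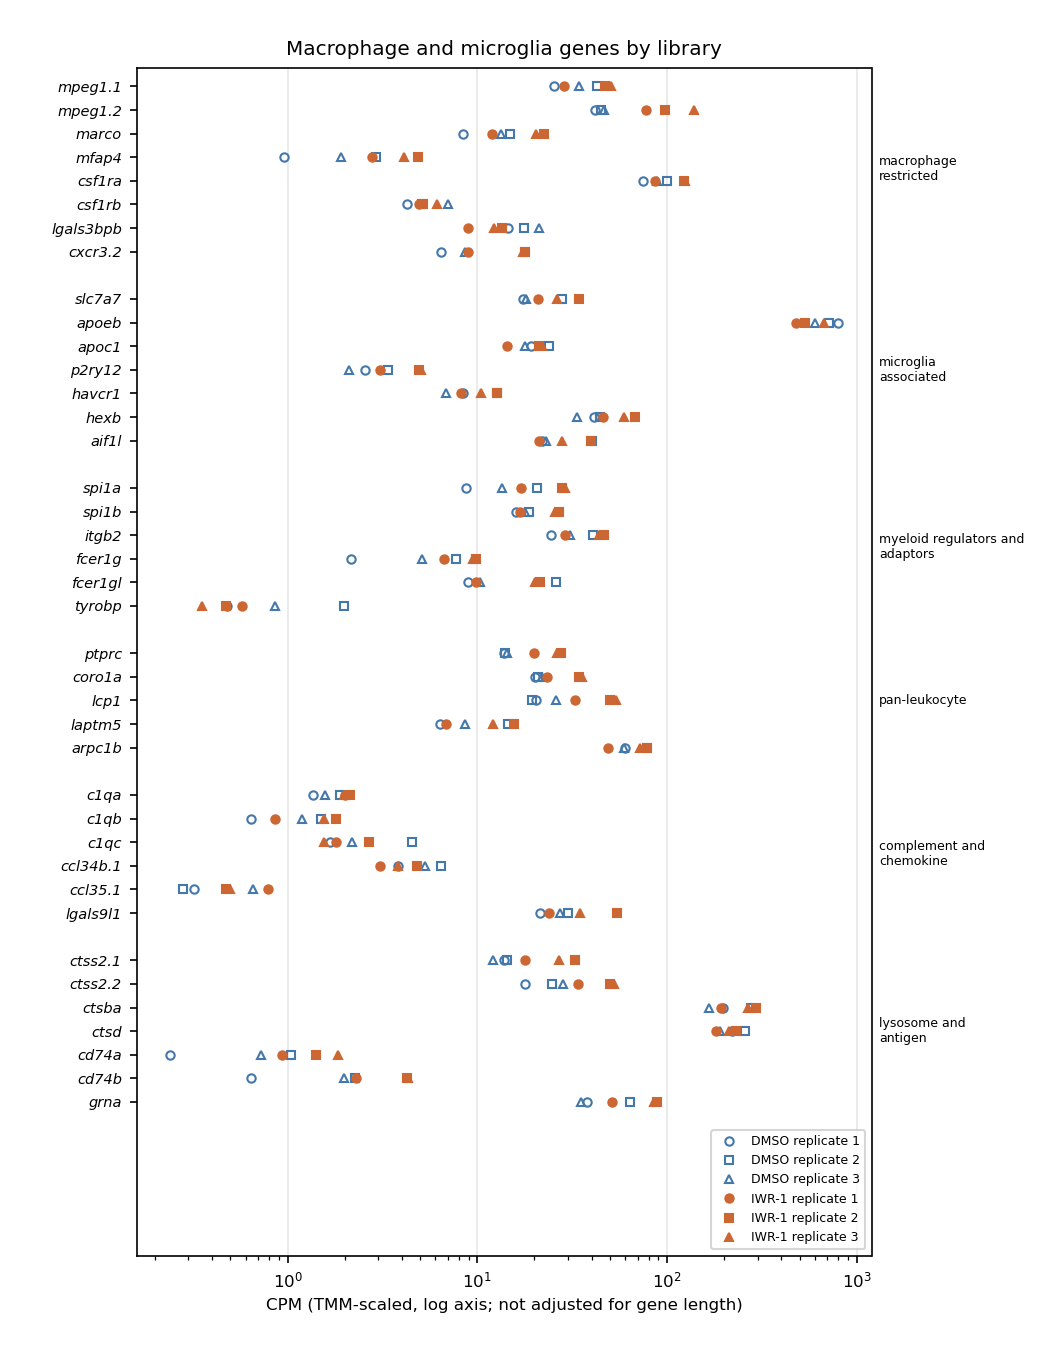
CPM of the 39 genes in each of the 6 libraries, on a log axis, ordered by role, with open blue symbols for DMSO and filled orange symbols for IWR-1 and 1 symbol shape per replicate number. mpeg1.2, ptprc, lcp1, ctss2.1 and ctss2.2 show all IWR-1 libraries above all DMSO libraries, while in most rows IWR-1 replicate 1 lies among the DMSO values.

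Of the 8 genes listed as restricted to macrophages 1 rose, mpeg1.2, or 12.5%, where 3.88% of all genes did. That group includes csf1ra, which pigment cells also use. mpeg1.2 (chromosome 8, 19356072 to 19359834, GRCz11) and mpeg1.1 (chromosome 8, 29710110 to 29713621) encode pore-forming perforin-2 proteins of macrophages, and mpeg1.1 supplies the promoter used in macrophage reporter fish. mpeg1.2 had 77.8, 98.1 and 139 CPM in IWR-1 replicates 1, 2 and 3, against 41.6, 44.7 and 46.6 CPM in DMSO replicates 1, 2 and 3. The DMSO libraries were close together and all below the lowest IWR-1 library, and the gene rose 2.37-fold (log2 fold change 1.24 ± 0.20 SE, edgeR adjusted p = 0.00415).

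mpeg1.1 had 28.7, 47.3 and 50.4 CPM with IWR-1, against 25.4, 42.8 and 34.5 CPM with DMSO. Its groups overlapped, and the log2 fold change of 0.30 had a 95% interval from -0.21 to 0.82 (edgeR adjusted p = 0.462). On the log2 scale the ratio of mpeg1.2 to mpeg1.1 ran from 0.07 to 0.71 in the DMSO libraries and from 1.05 to 1.46 in the IWR-1 libraries, which do not overlap. The difference of the mean ratios was 0.92, with an exact two-sided permutation p of 0.10, the smallest that 3 against 3 can give, and 0.45 adjusted over the 9 paralog ratios compared.

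marco, a scavenger receptor gene of macrophages, had 11.9, 22.5 and 20.4 CPM with IWR-1, against 8.39, 14.9 and 13.3 CPM with DMSO. IWR-1 replicate 1 lay inside the DMSO range, and the log2 fold change was 0.59 ± 0.27 (edgeR adjusted p = 0.206, and 0.0148 with the replicate block). mfap4, a secreted microfibril-associated protein gene used to mark zebrafish macrophages, had 2.80, 4.87 and 4.11 CPM with IWR-1, against 0.959, 2.92 and 1.91 CPM with DMSO. IWR-1 replicate 1 lay just below DMSO replicate 2, and the log2 fold change was 1.04 ± 0.36 (edgeR adjusted p = 0.113, and 0.00969 with the replicate block).

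mfap4 (chromosome 1, 59090583 to 59092056) lies in a cluster of 13 annotated genes of that name on chromosome 1, so reads shared between copies make its value uncertain. Counts were deposited for 6 of them, 3 were tested, and 1 rose, the copy ENSDARG00000038683 that overlaps mfap4 on the other strand (2.17 ± 0.44, edgeR adjusted p = 0.0141), a gene outside the list. That copy had only 76 counts over all libraries, beside 231 for mfap4. The remaining copy tested, with 209 counts in all, was at 0.29 ± 0.44 (edgeR adjusted p = 0.723).

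csf1ra and csf1rb encode the paralogous receptors for Csf1 and Il34, and in zebrafish csf1ra also acts in xanthophores, the yellow pigment cells. csf1ra had 86.9, 122 and 124 CPM with IWR-1, against 74.8, 99.5 and 88.7 CPM with DMSO, and its groups overlapped through IWR-1 replicate 1. Its log2 fold change was 0.34 ± 0.17 (95% interval -0.04 to 0.72, edgeR adjusted p = 0.256). For csf1rb the values were 4.95, 5.19 and 6.16 CPM with IWR-1 and 4.23, 5.09 and 7.0 CPM with DMSO. All IWR-1 values of csf1rb fell within the DMSO range, and its log2 fold change of -0.01 had a 95% interval from -0.51 to 0.49 (edgeR adjusted p = 0.984).

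Since csf1ra is shared with pigment cells, the other 19 genes of the pigment list stand beside it. Of these 13 fell and 0 rose, where 3.59% and 3.88% of all tested genes did. The summed level of the 19 went from between 651 and 684 CPM with DMSO to between 233 and 253 CPM with IWR-1. The xanthophore gene gch2, which acts in pteridine synthesis, had a log2 fold change of -3.06 (edgeR adjusted p = 2.77e-05). The part of pigment cells in the csf1ra level was not tested.

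The remaining genes listed as restricted to macrophages pointed to different sides. lgals3bpb, a galectin-3-binding protein gene, had 8.97, 13.5 and 12.3 CPM with IWR-1, against 14.5, 17.6 and 21.2 CPM with DMSO, with all IWR-1 libraries below all DMSO libraries. Its log2 fold change was -0.62 ± 0.20 (edgeR adjusted p = 0.0938, and 0.0118 with the replicate block), and it is the 1 member called lower under the block. cxcr3.2, a chemokine receptor gene that directs macrophages towards Cxcl11 ligands, had 8.97, 17.8 and 17.3 CPM with IWR-1, against 6.47, 17.8 and 8.65 CPM with DMSO (log2 fold change 0.44, edgeR adjusted p = 0.485).

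Of the 5 genes listed as shared by leukocytes, 2 rose, or 40%, where 3.88% of all genes did. That group includes arpc1b, which many other cells also use. ptprc, which encodes the phosphatase Cd45 found on all white blood cells, had 20.0, 27.5 and 26.3 CPM with IWR-1, against 13.7, 13.9 and 14.4 CPM with DMSO. The DMSO libraries were nearly level and all IWR-1 libraries lay above them, at 1.75-fold (log2 fold change 0.81 ± 0.16, edgeR adjusted p = 0.0149). lcp1 (L-plastin), an actin-bundling protein gene, had 32.6, 50.2 and 53.9 CPM with IWR-1, against 20.4, 19.4 and 25.9 CPM with DMSO. It rose 2.08-fold without overlap (1.05 ± 0.20, edgeR adjusted p = 0.0115).

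coro1a, which encodes the leukocyte actin regulator coronin 1A, had 23.2, 34.4 and 35.5 CPM with IWR-1, against 20.1, 20.9 and 21.9 CPM with DMSO. Its groups did not overlap, yet it missed the threshold (0.56 ± 0.18, edgeR adjusted p = 0.0820, and 0.0172 with the replicate block). It overlaps cldni on the opposite strand, a gene with 16268 counts in all and a log2 fold change of 0.03. laptm5, a lysosomal membrane protein gene of blood cells, was at 0.23 ± 0.33, and arpc1b, a subunit of the actin-nucleating Arp2/3 complex, at 0.01 ± 0.19 (edgeR adjusted p = 0.704 and 0.980).

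None of the 7 genes associated with microglia passed the edgeR test. DESeq2 also called 0. The unadjusted edgeR p was below 0.05 for 2, or 28.6%, where all tested genes gave 24.1%. The replicate block called 1, hexb, or 14.3%, where 8.96% of all genes were called higher. Their median log2 fold change was 0.18, with a range from -0.33 to 0.71. p2ry12, a purinergic receptor gene that marks microglia, had 3.08, 4.95 and 5.03 CPM with IWR-1, against 2.56, 3.39 and 2.11 CPM with DMSO. Of the IWR-1 libraries only replicate 1 lay within the DMSO range, and the log2 fold change was 0.71 with a 95% interval from 0.10 to 1.32 (edgeR adjusted p = 0.148).

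hexb, the beta subunit of lysosomal hexosaminidase, had 46.0, 68.2 and 59.2 CPM with IWR-1, against 41.1, 44.4 and 33.7 CPM with DMSO. Its groups did not overlap, with a log2 fold change of 0.54 ± 0.17 (edgeR adjusted p = 0.0853, and 0.0157 with the replicate block). slc7a7, an amino acid transporter gene needed by early microglia, was at 0.36 ± 0.23, havcr1, a phosphatidylserine receptor gene, at 0.18 ± 0.25, and aif1l, related to the microglial marker Iba1, at 0.07 ± 0.27 on the log2 fold change scale.

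Neither lipoprotein gene passed the test. apoeb, an apolipoprotein E gene strongly expressed in microglia and also in other larval tissues, had 480.0, 531 and 676 CPM with IWR-1, against 797, 714 and 604 CPM with DMSO. Its groups overlapped through the replicates numbered 3, and the log2 fold change was -0.33 ± 0.17 (edgeR adjusted p = 0.278). Its neighbour apoc1, 8664 bases away on chromosome 16, was at -0.08 ± 0.20 (edgeR adjusted p = 0.830). The sign of apoc1 was not stable across alternatives, with 0.089 without IWR-1 replicate 1. Both apoeb and apoc1 are overlapped on the same strand by nbn, a gene with 980 counts in all and a log2 fold change of 0.02.

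Among the regulators and adaptors of myeloid cells edgeR called 0 of 5 tested genes. DESeq2, which also tested tyrobp, called 0. The unadjusted edgeR p was below 0.05 for 2, or 40%, where all tested genes gave 24.1%. The replicate block called 2, spi1a and fcer1g, or 40%, where 8.96% of all genes were called higher. spi1a and spi1b encode the paralogous Spi1 transcription factors of the myeloid lineage. spi1a had 17.1, 28.0 and 29.1 CPM with IWR-1, against 8.71, 20.5 and 13.5 CPM with DMSO, and DMSO replicate 2 lay above IWR-1 replicate 1. Its log2 fold change was 0.80 ± 0.29 (edgeR adjusted p = 0.123, and 0.00172 with the replicate block).

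spi1b had 16.8, 26.9 and 25.7 CPM with IWR-1, against 15.9, 18.6 and 17.8 CPM with DMSO, at 0.40 ± 0.19 on the log2 fold change scale (edgeR adjusted p = 0.228). Both genes are overlapped on the opposite strand, spi1a by clpxb and spi1b by si:ch73-314g15.3, whose log2 fold changes were -0.08 and 0.02. fcer1g and fcer1gl encode adaptors with an activating motif that carry signals from Fc and related receptors. They were at 0.81 ± 0.35 and 0.20 ± 0.39, and itgb2, the common beta chain of leukocyte integrins, at 0.32 ± 0.22. tyrobp (Dap12), another such adaptor gene, was not tested in the main edgeR fit, at 5 to 8 counts per library with IWR-1 and 6 to 21 with DMSO. Its log2 fold change in the authors' deposited comparison was -0.60, and DESeq2 as run here gave an adjusted p of 0.305.

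In the group of lysosome and antigen-handling genes, 2 of 7 rose (28.6%, where 3.88% of all genes did), the neighbouring cathepsin S genes. ctss2.1 (chromosome 16, 29509133 to 29513434) and ctss2.2 (29514473 to 29519977) lie 1038 bases apart on the same strand. Cathepsin S is a lysosomal protease that trims the invariant chain during antigen presentation. ctss2.1 had 17.9, 32.8 and 27.0 CPM with IWR-1, against 13.7, 14.3 and 12.1 CPM with DMSO, and rose 1.94-fold without overlap (0.95 ± 0.21, edgeR adjusted p = 0.0230).

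ctss2.2 had 33.8, 49.8 and 52.6 CPM with IWR-1, against 17.8, 24.8 and 28.2 CPM with DMSO, and rose 1.92-fold without overlap (0.94 ± 0.21, edgeR adjusted p = 0.0223). The log2 ratio of ctss2.2 to ctss2.1 was 0.83 ± 0.20 with IWR-1 and 0.79 ± 0.42 with DMSO (SD, n = 3 each, exact two-sided permutation p = 1). Where the copies share sequence, reads may have been split between them.

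cd74a and cd74b encode the invariant chain of class II antigen presentation itself. cd74b had 2.30, 4.24 and 4.32 CPM with IWR-1, against 0.639, 2.26 and 1.98 CPM with DMSO, a gap of little width between IWR-1 replicate 1 and DMSO replicate 2. Its log2 fold change was 1.15 ± 0.41 (edgeR adjusted p = 0.114, and 0.00678 with the replicate block), and that of cd74a 1.08 ± 0.48 (edgeR adjusted p = 0.196) at 3 to 26 counts per library.

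grna, a progranulin gene of macrophages and other cells, had 51.1, 88.5 and 85.0 CPM with IWR-1, against 38.0, 64.0 and 35.0 CPM with DMSO. DMSO replicate 2 lay above IWR-1 replicate 1, and the log2 fold change was 0.72 ± 0.26 (edgeR adjusted p = 0.119, and 0.00412 with the replicate block). The broadly used lysosomal proteases stayed nearer to 0, with ctsba (cathepsin B) at 0.24 ± 0.21 and ctsd (cathepsin D) at -0.10 ± 0.16 (edgeR adjusted p = 0.529 and 0.754).

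Of the 5 complement and chemokine genes tested by edgeR 0 were called, and 0 had an unadjusted edgeR p below 0.05. DESeq2, which also tested ccl35.1, called 0. The replicate block called 1, lgals9l1, or 20%, where 8.96% of all genes were called higher. c1qa, c1qb and c1qc, which encode the chains of the complement recognition protein C1q, lie side by side on chromosome 21 with no annotated gene between them. They had 8 to 48 counts per library. c1qa had 2.01, 2.12 and 1.98 CPM with IWR-1, against 1.36, 1.88 and 1.58 CPM with DMSO, without overlap. Its log2 fold change and that of c1qb were both 0.35, with standard errors of 0.28 and 0.41.

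c1qc was at -0.45 ± 0.39, its highest value being DMSO replicate 2 at 4.52 CPM. The 95% intervals of all C1q genes included 0. lgals9l1, a galectin-9-like gene, was at 0.52 ± 0.26 (edgeR adjusted p = 0.247, and 0.0430 with the replicate block), and the chemokine gene ccl34b.1 at -0.40 ± 0.25 (edgeR adjusted p = 0.359). ccl35.1, with 3 to 11 counts per library, was not tested by edgeR (DESeq2 adjusted p = 0.811).

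**Figure D2:**
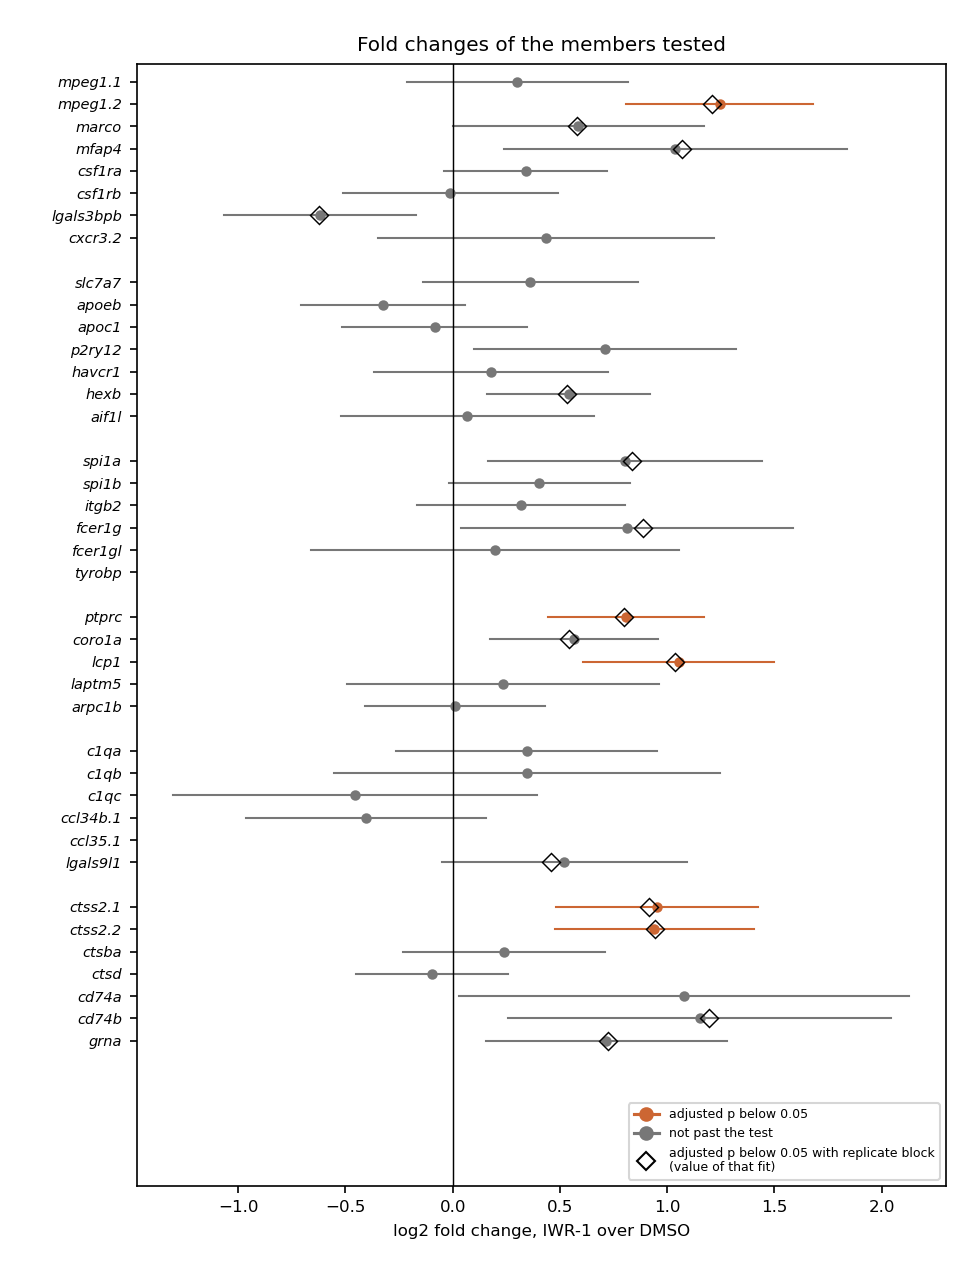
Log2 fold change of IWR-1 over DMSO for the 37 members tested, as points with 95% intervals from the edgeR fit, in orange where the adjusted p was below 0.05. Diamonds mark the 15 members called with the replicate block, at that fit's value; 14 lie to the right of 0 and 1, lgals3bpb, to the left.

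The members varied together between libraries of the same group. IWR-1 replicate 1 was the lowest IWR-1 library for 35 of the 37 members, while it was lowest for 38.2% of all tested genes. DMSO replicate 2 was the highest DMSO library for 29 of 37, where 39.7% of all genes had their highest DMSO value. DMSO replicate 1 was the lowest DMSO library for 26, where 24.6% of all genes had their lowest DMSO value. DMSO replicate 2 lay above IWR-1 replicate 1 for 28 members (49.2% of all tested genes), so the groups met at these libraries.

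The median deviation of the members from their own mean over 6 libraries was -0.22, 0.49 and 0.34 in IWR-1 replicates 1, 2 and 3, and -0.42, 0.18 and -0.20 in DMSO replicates 1, 2 and 3, on the scale of log2(CPM + 0.5). Over all tested genes the same median stayed between -0.01 and 0.02. The ranges of these medians overlapped between the groups. DMSO replicate 2 is also the library with the fewest counts and with the lowest mitochondrial share, 6.32%; their part in the members' values was not tested.

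Read within replicate numbers, 28, 28 and 33 of the 37 members were higher in the IWR-1 library than in the DMSO library numbered 1, 2 and 3. The median differences were 0.21, 0.29 and 0.58 on the log2(CPM + 0.5) scale, where all tested genes had medians between -0.01 and 0.01. For 25 of the 37 the IWR-1 library was higher at every number, beside 25.7% of all tested genes. Over all genes, the deviations of same-numbered libraries from their group means correlated at 0.32, 0.37 and 0.17. What a shared number stands for is not stated in the labels.

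**Figure D3:**
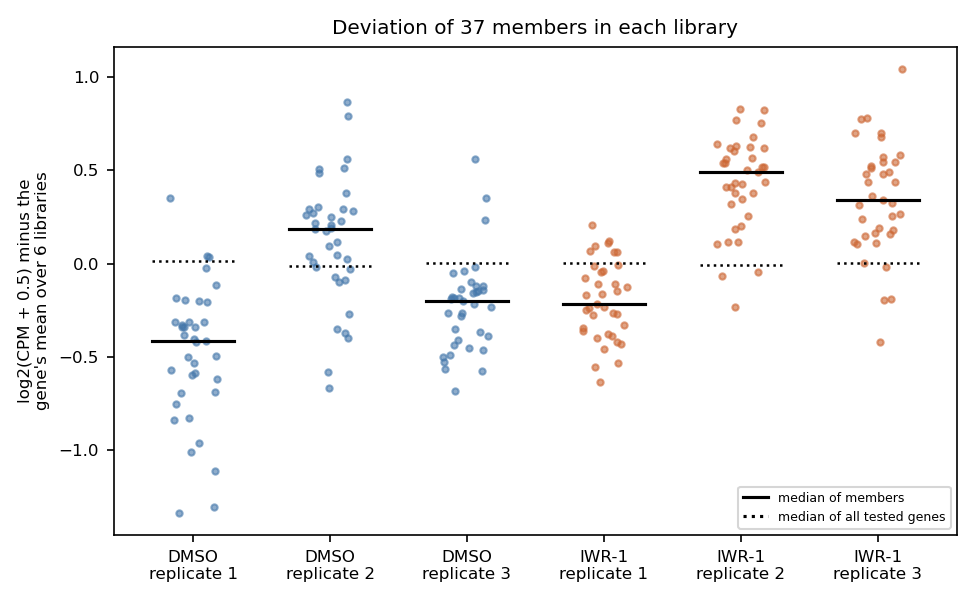
Each point is 1 of the 37 members tested, as log2(CPM + 0.5) minus that gene's mean over the 6 libraries, with solid bars at the members' median and dotted bars at the median of all tested genes. The members' median is highest in IWR-1 replicates 2 and 3, at 0.49 and 0.34, and lowest in DMSO replicate 1, at -0.42, while the dotted bars stay at about 0.

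Summed over the 39 genes the level was 1548, 2154 and 2224 CPM with IWR-1 and 1785, 2060.4 and 1607 CPM with DMSO, which overlap. That sum rests in large part on reads of apoeb, ctsba and ctsd, genes with many other sources in a trunk segment. Without these genes it was 694, 1095 and 1069 CPM with IWR-1 and 568, 811 and 648 CPM with DMSO, and IWR-1 replicate 1 still lay below DMSO replicate 2.

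The Csf1r ligands and the regulators of macrophages outside the list gave 1 higher and 1 lower of 12 tested. Over all genes 3.88% were higher and 3.59% lower. With the replicate block 2 of the 12 were higher and 1 lower, where 8.96% and 8.86% of all genes were. The median log2 fold change of the 12 was 0.02. The gene of these that fell without the block was csf1b, which encodes a Csf1 ligand. It had 1.58, 1.81 and 1.84 CPM with IWR-1, against 4.63, 4.05 and 5.48 CPM with DMSO. All IWR-1 libraries lay below all DMSO libraries (log2 fold change -1.44 ± 0.24, edgeR adjusted p = 0.00526), and the call held without any 1 library, at adjusted p between 0.00228 and 0.0323.

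Its paralog csf1a had 13.1, 9.66 and 9.13 CPM with IWR-1, against 9.99, 9.04 and 12.8 CPM with DMSO, a log2 fold change of -0.0014 ± 0.20. The other Csf1r ligand gene il34 had 4.02, 6.76 and 5.38 CPM with IWR-1, against 7.19, 12.2 and 5.41 CPM with DMSO (-0.61 ± 0.30, edgeR adjusted p = 0.250). In these ligand genes, then, 1 of 3 passed the test, while neither receptor gene did.

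The regulator that rose was cebpb, a transcription factor gene of myeloid and many other cells, at 38.6, 60.8 and 42.7 CPM with IWR-1 against 27.9, 30.9 and 23.0 CPM with DMSO (0.80 ± 0.19, edgeR adjusted p = 0.0298). Its call was lost without IWR-1 replicate 2 (0.130), IWR-1 replicate 3 (0.0823), DMSO replicate 1 (0.0979) or DMSO replicate 3 (0.0530). irf8, needed for macrophage fate in zebrafish, was at 0.89 ± 0.28 (edgeR adjusted p = 0.0816, and 0.00245 with the replicate block).

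**Figure D4:**
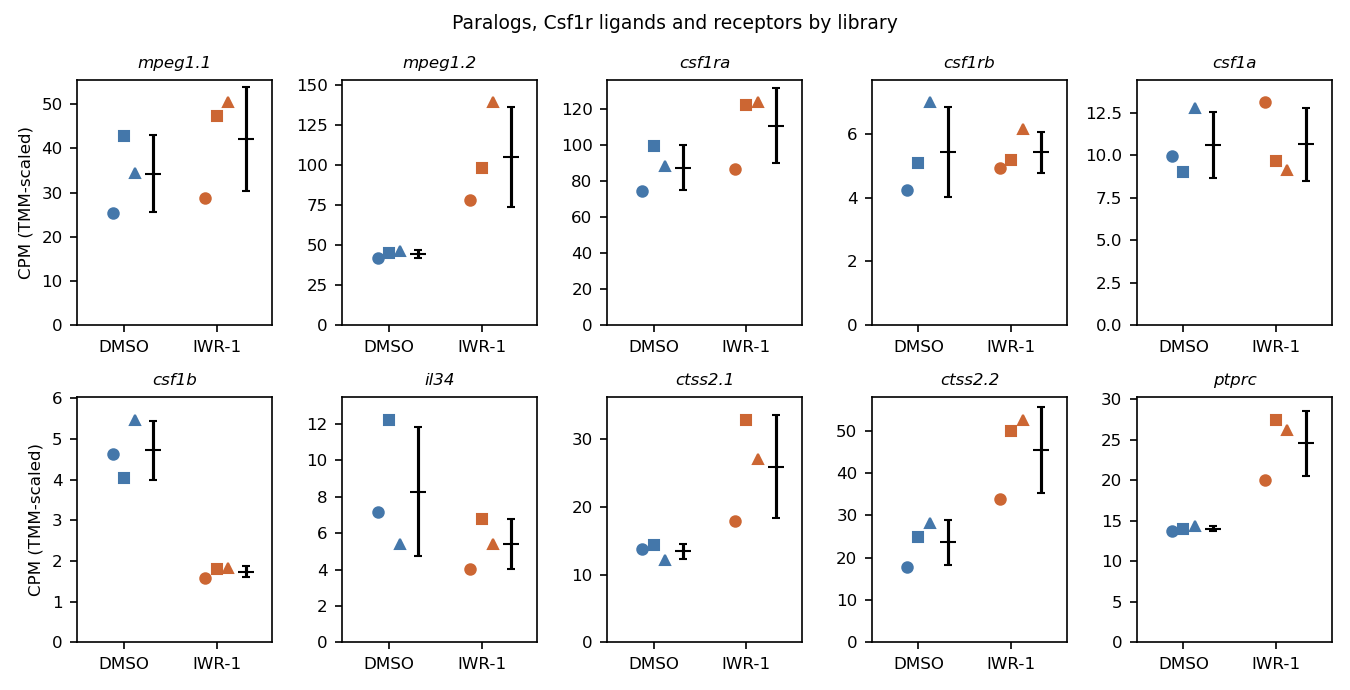
CPM in each library, with replicate numbers 1, 2 and 3 as circle, square and triangle and the mean ± SD (n = 3) in black beside each group, on linear axes from 0. mpeg1.2 at 77.8 to 139 CPM lies above its DMSO values of 41.6 to 46.6 and csf1b at 1.58 to 1.84 CPM below its DMSO values of 4.05 to 5.48, while mpeg1.1, csf1ra, csf1rb, csf1a and il34 overlap between groups.

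A second list of macrophage and microglia genes holds none of the members, but was also chosen with earlier results of these data known. Of its 50 genes tested 10 rose and 0 fell (21 and 2 with the replicate block), with a median log2 fold change of 0.45. Over all genes 3.88% rose and 3.59% fell (8.96% and 8.86% with the block), and these shares also stand beside the lists that follow. Of the 50 genes 39 lay above 0 and 11 below, where 49.5% of all genes lay above. All IWR-1 libraries lay above all DMSO libraries for 19 (14.2% of all tested genes) and below for 3 (15.6%). These 3 were itgam, stab2 and abca1a, at -0.42, -0.40 and -0.37. The 2 lower with the block were abca1a (adjusted p = 0.0445 with the block) and arg2, at -0.66 (edgeR adjusted p = 0.0856, and 0.0124 with the block). The 4 with the smallest p were hck, timd4, cybb and itgae.1. hck, a Src-family kinase gene of myeloid cells, had 21.6, 38.4 and 36.5 CPM with IWR-1, against 10.5, 15.5 and 9.04 CPM with DMSO (1.47 ± 0.26, edgeR adjusted p = 0.00699). Its call held without any 1 library, at adjusted p up to 0.0406.

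timd4, a receptor gene for the uptake of dying cells, had 3.66, 3.22 and 4.67 CPM with IWR-1, against 1.76, 1.32 and 1.65 CPM with DMSO (1.28 ± 0.26, edgeR adjusted p = 0.0161, and 0.104 without IWR-1 replicate 3). itgae.1, an integrin alpha chain gene, was at 0.82 ± 0.18 (edgeR adjusted p = 0.0211). cybb, cyba and ncf1, subunits of the phagocyte NADPH oxidase, rose by 1.36, 1.12 and 1.36 on the log2 scale. Without IWR-1 replicate 2, IWR-1 replicate 3 or DMSO replicate 1 neither these 3 oxidase genes nor itgae.1 were called, at adjusted p between 0.0721 and 0.140.

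The others that rose were hcst, syk, inpp5d and hmox1a, and for the heme oxygenase gene hmox1a the groups overlapped at IWR-1 replicate 1. The calls of syk and inpp5d were lost without IWR-1 replicate 2, IWR-1 replicate 3 or DMSO replicate 1, at adjusted p between 0.0740 and 0.133. That of hcst held only without DMSO replicate 2, with 0.0707 to 0.117 otherwise, and that of hmox1a only without IWR-1 replicate 1, with 0.0567 to 0.221 otherwise. hmox1a had 6.81, 22.0 and 23.3 CPM with IWR-1, against 7.75, 3.77 and 5.35 CPM with DMSO, and its edgeR adjusted p of 0.0374 was 0.197 with the replicate block.

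Other white blood cells gave lists with different medians. The median log2 fold change was 0.02 for neutrophils, 0.49 for lymphocytes and natural killer cells and 0.59 for dendritic cells. Both of the latter lie above the members' 0.36, but they rest on only 8 and 4 tested genes. In the neutrophil list 0 of 14 rose and 2 fell, the granule gene npsn (-0.93 ± 0.23, edgeR adjusted p = 0.0336) and cpa5 (-2.16 ± 0.48, edgeR adjusted p = 0.0226), known from zebrafish mast cells. Of the 14 genes 7 lay above 0 and 7 below, and DESeq2 called 2 higher and 2 lower. With the replicate block 3 were higher, csf3r, lect2l and il6r, and 2 lower. csf3r was at 21.2 to 37.9 CPM with IWR-1 and 15.5 to 21.4 CPM with DMSO (edgeR adjusted p = 0.0609). lect2l was at 4.37 to 12.2 CPM with IWR-1 and 3.04 to 5.27 CPM with DMSO (edgeR adjusted p = 0.0659). The defining neutrophil gene mpx, a peroxidase, was at 13.8 to 20.4 CPM with IWR-1 and 19.9 to 26.9 CPM with DMSO. npsn was not called without IWR-1 replicate 1 (0.111), IWR-1 replicate 2 (0.0764), IWR-1 replicate 3 (0.122) or DMSO replicate 3 (0.0600), nor cpa5 without IWR-1 replicate 1 (0.0704), IWR-1 replicate 3 (0.121) or DMSO replicate 1 (0.0757). The summed level of the list was 262 to 413 CPM with IWR-1 and 324 to 375 CPM with DMSO. A single gene, cfl1l, held 113 to 176 CPM of it with IWR-1 and 139 to 167 CPM with DMSO. The part of neutrophils in that sum was not tested.

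In the lymphocyte and natural killer list 13 of 26 genes were in the table and 8 were tested. Of these gata3 rose (0.71 ± 0.18) and eomesa fell (-1.19 ± 0.26), transcription factor genes that other tissues also use, and with the replicate block 3 were higher and 1 lower. lck, zap70 and cd79a, which define T and B cells, were at most 0.708 CPM in any library, and none of the 13 was at 0 in all. The list summed to 54.7 to 83.3 CPM with IWR-1 and 49.2 to 58.3 CPM with DMSO. Of the dendritic list 1 of 4 rose, batf3 (2.47 ± 0.56), and 2 with the replicate block. For 3 of the 4 all IWR-1 libraries lay above all DMSO libraries, where 14.2% of all tested genes did so. flt3 stayed at or below 0.574 CPM.

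The edgeR adjusted p of gata3, eomesa and batf3 was 0.0380, 0.0211 and 0.0229. Without IWR-1 replicate 2 these were 0.113, 0.0899 and 0.103, and without DMSO replicate 1 they were 0.121, 0.0832 and 0.0951. gata3 was also not called without IWR-1 replicate 3 (0.206) or DMSO replicate 3 (0.0579), nor eomesa without IWR-1 replicate 1 (0.0698), and batf3 was too low to be tested without IWR-1 replicate 3. ptprc and lcp1 are shared by all these cells, and the part of each cell type in their rise was not tested.

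Among blood and vessel genes, 1 of 6 erythrocyte genes tested rose (3 with the replicate block), the alpha globin gene hbae3 (1.18 ± 0.16, edgeR adjusted p = 0.00204). The median of the erythrocyte list was 0.95, and the list summed to 61.7 to 74.3 CPM with IWR-1 against 29.2 to 35.3 CPM with DMSO. Of 17 endothelial genes 1 fell, the junction gene cdh5 (-0.74 ± 0.17, edgeR adjusted p = 0.0269), which was not called without IWR-1 replicate 2 (0.0982), IWR-1 replicate 3 (0.147) or DMSO replicate 1 (0.116). With the replicate block 1 endothelial gene was higher and 2 lower, and the median was -0.21. The endothelial list summed to 182 to 222 CPM with IWR-1 and 202 to 240.4 CPM with DMSO. A difference in the blood left in the tissue was not tested for its part in the members' values.

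Lysosomal genes outside the list gave 2 higher and 0 lower of 44 tested, or 4.55% higher, near the 3.88% of all genes, and their median log2 fold change was 0.11. With the replicate block 5 were higher and 1 lower. The 2 without it were ctsh, a cathepsin H gene (1.11 ± 0.19, edgeR adjusted p = 0.00654, and at most 0.0447 without any 1 library), and gla, alpha-galactosidase (1.44 ± 0.38, edgeR adjusted p = 0.0453, and between 0.0654 and 0.188 without any 1 library).

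In the authors' deposited table, which gives log2 fold changes of IWR1 over DMSO from their own fit, 5 of the 39 members had an adjusted p below 0.05 and a higher level with IWR-1, and 0 a lower one, where 4.28% and 4.06% of all genes with an adjusted p did. mpeg1.2 has a log2 fold change of 1.13 ± 0.19 and an adjusted p of 4.27e-07 in the authors' deposited table. The others there were lcp1 (adjusted p 9.99e-05), ctss2.2 (0.00122), ctss2.1 (0.00173) and ptprc (0.00179). DESeq2 as run here gave mpeg1.2 the same adjusted p of 4.27e-07 and the same shares of called genes. The deposited calls are therefore not a separate test of these counts. Fold changes differed between the 2, with deposited values of 1.13 for mpeg1.2 and 0.61 for cd74a beside 1.25 and 1.08 from DESeq2 here. They are not like measures.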

How the data were processed

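Raw counts per Ensembl gene were deposited by the authors, and their processing notes name cutadapt, FastQC, STAR, featureCounts and the build GRCz11. Tool versions, and whether reads were assigned by strand, are unstated there, so overlapping genes on opposite strands may share reads. For apoeb and apoc1, which nbn overlaps on the same strand, assignment by strand would not separate the reads. Per the labels' protocols, RNA was isolated with a kit made for paraffin-embedded tissue, and the libraries were directional and depleted of ribosomal RNA. Each gene in the deposited counts reaches at least 6 counts in some library. The authors' deposited comparison lists log2 fold changes, standard errors (at most 0.335) and p-values, per its file headers. Size factors, a deposited ratio per library, did not enter the tests. Gene names and coordinates come from the deposited annotation.

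Differences were tested by edgeR 4.0.16 under R 4.3.3, with TMM scaling, filterByExpr (which removed 2788 genes), a robust quasi-likelihood fit over both groups of 3, and Benjamini-Hochberg adjustment over 19562 genes, calling an adjusted p below 0.05. A standard error is the absolute log2 fold change over the root of F. CPM are TMM-scaled and not per length, so levels were not compared between genes. The common biological coefficient of variation was 17.0%. The code was tested on simulated data.

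The members and lists were chosen with earlier results of these data known. Members past the test and defining genes are given in full, other members by value or range, and other lists by their counts and up to 4 called genes with the smallest p, any further gene being named after its values were seen. Same-numbered libraries deviated together (correlations 0.325, 0.373 and 0.172, each over 0.1), so the numbers were taken as pairs from the data alone, and the replicate block is given where it changes a call of a member or moves a count of calls by over 1.5 times. Alternatives were that block, RLE scaling, 2 other filters, leaving out each library, thinned counts, leaving out mitochondrial genes and the 10 highest genes, DESeq2 1.42.0, limma 3.58.1 (voom with sample weights), and an adjusted p below 0.1. A planned description of promoter motifs was not made, as sequences were not used here.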

Additional observations from a re-analysis of the deposited data

How the results depend on the processing

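RLE scaling, either other filter, thinned counts, leaving out mitochondrial and abundant genes, and DESeq2 changed the call of no member. The set tested did change, as the filter on a CPM of at least 1 in 3 libraries left out cd74a. DESeq2 also tested tyrobp and ccl35.1, and called neither. With the replicate block 14 members were higher and 1 lower, and 3486 of all genes were called, against 1462 without it. limma voom called 25 members higher and 4452 genes, and at an adjusted p below 0.1 there were 7 members higher, 1 lower and 2450 genes. Leaving out 1 library gave between 1 and 10 members higher, 0 lower, between 447 and 2117 genes called, and a members' median log2 fold change between 0.24 and 0.62. The sign of 9 members, none of them called by edgeR, changed under some alternative, and for these and the counts above the cause was not tested. With the block the log2 fold change of csf1rb was 0.0099 and that of arpc1b -0.0052, and with limma voom csf1rb was at 0.24, apoc1 at 0.071 and c1qc at 0.023. Over the fits without 1 library csf1rb ranged from -0.16 to 0.22, arpc1b from -0.12 to 0.19, apoc1 from -0.19 to 0.089, aif1l from -0.20 to 0.40, laptm5 from -0.042 to 0.62, fcer1gl from -0.070 to 0.84, c1qc from -0.71 to 0.047, ctsd from -0.20 to 0.032 and havcr1 from -0.0059 to 0.47. Low counts limit tyrobp, ccl35.1, cd74a and the C1q genes.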
